A study of Mus musculus with 8 samples.

Results

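The replication-dependent histone genes are 68 of the 23997 genes in a table of expression values from mouse regulatory T (Treg) cells, which restrain immune responses and depend on the transcription factor Foxp3. They were taken as every gene whose symbol starts with Hist1h, Hist2h, Hist3h or Hist4h, and sorted by histone type into 6 H1, 18 H2a, 19 H2b, 12 H3 and 13 H4 members. By position, 54 lie in the Hist1 cluster on chromosome 13, 10 in Hist2 on chromosome 3, 3 in Hist3 on chromosome 11 and 1, Hist4h4, on chromosome 6. RNA was sequenced from CD4+YFP+ cells sorted out of spleen and draining lymph nodes of C57BL/6 mice, with 4 deposited columns in each of 2 groups. Bcl11b-deficient cells had the genotype Bcl11b f/f Foxp3-YFP-Cre/+, in which both copies of Bcl11b are floxed; its protein is a zinc finger factor of the T cell lineage. Bcl11b-sufficient cells had the genotype Bcl11b f/+ Foxp3-YFP-Cre/+, so the controls carried the same Cre and also a floxed copy. In both groups the Cre came with Foxp3, and deletion was directed to Foxp3-expressing cells. No source used here gives the age of the mice, or says whether separate animals stand behind the columns, and the p-values therefore reflect the spread between these libraries alone, which may be technical. The labels name total RNA and a stranded total RNA kit.

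Histones package DNA: H2A, H2B, H3 and H4 form the nucleosome core, and H1 binds the linker DNA between nucleosomes. The cluster genes supply most new histones in S phase, when DNA is copied. Their mRNAs typically end without a poly(A) tail, in a conserved stem-loop that the protein SLBP binds, and are cut just past it with the help of the U7 snRNP. Replication-independent variants, such as H2A.Z and H3.3, are encoded outside the clusters by polyadenylated mRNAs and are made throughout the cell cycle. Some cluster genes also give polyadenylated transcripts in cells that have stopped dividing.

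The stem-loop was searched for as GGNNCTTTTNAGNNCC on the sense strand of the GENCODE M21 transcripts (GRCm38). It was found in 44 of 68 members (64.7%) and in 89 of 55450 annotated genes (0.161%), and on the antisense strand in 42 genes and 0 members. The most frequent form, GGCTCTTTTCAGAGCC, stood in 26 members of types H1, H2a, H2b and H3. H4 members held other forms, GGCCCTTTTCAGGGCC in 7, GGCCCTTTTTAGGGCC in 2 and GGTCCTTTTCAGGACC in 2. A further 6 members held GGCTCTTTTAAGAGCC and 1 held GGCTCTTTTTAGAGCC. Shown here are the 4 members with the highest levels, then the members with the motif and the largest fold changes on log2(FPKM + 1), the H4 member with a rare stem and the H2a member with a rare loop. Each window is read on the gene's own strand within the 3′ untranslated region of its single exon, and capitals mark the stem-loop.
Hist3h2a: ccaaaGGCTCTTTTCAGAGCCacccacaac
Hist3h2ba: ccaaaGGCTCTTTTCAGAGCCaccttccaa
Hist1h1c: caaaaGGCTCTTTTCAGAGCCaccactccc
Hist1h4i: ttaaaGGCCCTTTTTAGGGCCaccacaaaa
Hist1h2bj: ccaaaGGCTCTTTTCAGAGCCacgcacaat
Hist1h2bg: ccaaaGGCTCTTTTCAGAGCCacccatact
Hist1h4b: caaaaGGTCCTTTTCAGGACCactcactga
Hist2h2ac: aaaaaGGCTCTTTTTAGAGCCaccaaatct

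On GRCm38 these windows lie at chr11:58955167-58955196 (plus strand) for Hist3h2a, chr11:58949344-58949373 (plus) for Hist3h2ba, chr13:23739507-23739536 (plus) for Hist1h1c and chr13:22040957-22040986 (minus) for Hist1h4i. Those of Hist1h2bj and Hist1h2bg lie at chr13:22043633-22043662 and chr13:23571838-23571867, both on the plus strand. The window of Hist1h4b is at chr13:23757361-23757390 (plus) and that of Hist2h2ac at chr3:96220409-96220438 (minus). In 41 of the 44 members with the motif the RefSeq model ends 4 to 8 bases past the stem-loop. The GENCODE models differ: 22 of the 44 run on for more than 100 bases and 22 end within 100. Which annotation the deposited values rest on is not stated in the labels, but some low values do not follow the GENCODE lengths, as set out below.

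Some columns of a group were nearly the same. The spread between deficient replicates 1 and 3, between deficient replicates 2 and 4 and between sufficient replicates 1 and 3 was 1.33 to 1.38 times that of read sampling, against 1.88 to 2.84 times for other pairs within a group, and the columns of such a pair were averaged and counted as 1 library. This left 2 deficient and 3 sufficient libraries. Approximate depth, from the steps between low values, ran from 2710000 to 11700000 fragments a column, so that 1 fragment on 500 bases was worth 0.17 to 0.739 FPKM (fragments per kilobase of transcript, scaled to the size of the library). Bcl11b, the targeted gene, ranged from 18.7 to 24.6 FPKM over the deficient and from 39.1 to 46.5 FPKM over the sufficient columns (limma adjusted p = 0.0238). Of the T cell and Treg markers 6 of 7 were in the table and none was at 0. Foxp3 was 153 ± 0.517 and 187 ± 18.8 FPKM (-0.28, SE 0.12, limma adjusted p = 0.285). Il2ra, the IL-2 receptor alpha chain, was 112 ± 13.5 and 179 ± 26.1 FPKM (-0.66, SE 0.15, limma adjusted p = 0.0783). Both were without overlap between groups, as was Cd3e (-0.13, SE 0.11). Cd4 did not overlap either, but was higher in the deficient libraries (0.17, SE 0.11). Cd3d and Cd3g overlapped (-0.18 and 0.0071). Libraries did not overlap for 18.9% of all genes with higher and 17.9% with lower deficient values. Summed macrophage markers (12 of 13 in the table) were 576 and 256 FPKM in the deficient against 15.2, 62.8 and 59.5 FPKM in the sufficient libraries, with 5 of 11 tested called higher, where 1.93% of all genes were.

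The histone cluster genes were read at low levels in all 8 columns. Between 20 and 40 of the 68 members were above 0 in a column, and 12 (17.6%) were listed at 0 in all 8, against 28.7% of all genes. The 12 were the H1 member Hist1h1t, known from testis, the H2a members Hist1h2aa, Hist1h2ao, Hist1h2ap, Hist2h2aa1 and Hist2h2aa2, the H2b members Hist1h2ba, Hist1h2bq and Hist1h2br, the H3 members Hist2h3c1 and Hist2h3c2, and the H4 member Hist1h4n. A listed 0 can also be a failed estimate in a table without counts. Apart from Hist1h1t, Hist1h2aa and Hist1h2ba, these members share 100% of their coding 50-base stretches with other genes. For such copies a 0 does not show that the gene is silent. Of the 54 members that share at least 50% of the coding part, 9 were at 0, and each of these 9 shares 100%. Of the 13 that share less, 3 were at 0, namely Hist1h1t, Hist1h2aa and Hist1h2ba. The median of the members' mean levels was 0.223 FPKM, and that of all genes 0.287 FPKM. A mean of at least 1 FPKM, the filter for testing, was reached by 19 members (27.9%) against 10614 of all genes (44.2%). Just under it were Hist1h2bm (0.787 FPKM), Hist1h1a (0.798) and Hist1h3a (0.803), and just above it Hist1h4h (1.08), Hist2h2ac (1.15) and Hist1h2bj (1.25). Taken mostly with RefSeq lengths, the members' approximate fragments came to 90 to 590 a column. Longer models would give more, as for Hist3h2a with 2146 bases in GENCODE against 508 in RefSeq. The members' summed FPKM was 0.00888% to 0.0176% of the column's total.

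Replication-independent variants were read at much higher levels per length. Their 11 genes summed to 985 and 990 FPKM in the deficient and 1216, 1188 and 1115 FPKM in the sufficient libraries, where the 68 cluster members summed to 82.1 and 65.4 and to 58.9, 81.8 and 73.7 FPKM. In each column the variants' sum was 11.9 to 23.7 times the members' sum. The RNAs Rmrp (of RNase MRP) and Rpph1 (of RNase P), which carry no poly(A) tail, summed to 60.8 and 4.21 FPKM in the deficient and 9.92, 24.2 and 4.57 FPKM in the sufficient libraries. Terc, the telomerase RNA, was above 0 only in deficient replicates 3 (0.676 FPKM) and 4 (0.422 FPKM). Cell cycle genes were present in all 8: Mki67, a marker of cycling cells, measured 9.28 to 32.2 FPKM, Top2a 13.1 to 32.3 FPKM and Pcna, the clamp of the replication fork, 147 to 205 FPKM. Whether the RNA fraction read, the annotation or the handling of reads that map to several copies set the members' low levels was not tested.

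**Figure D1:**
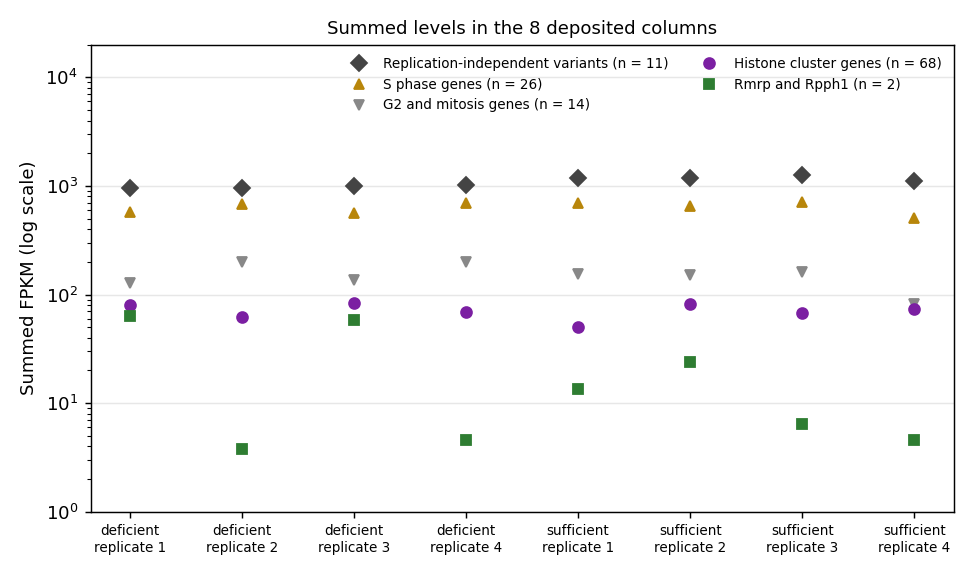
Summed FPKM (log scale) of the 68 histone cluster genes, the 11 replication-independent variants, the S phase list, the G2 and mitosis list, and Rmrp with Rpph1, in each of the 8 deposited columns. The cluster genes run from 49.8 FPKM in sufficient replicate 1 to 84.3 FPKM in deficient replicate 3 and lie under the variants (959 to 1251 FPKM) in every column.

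**Figure D2:**
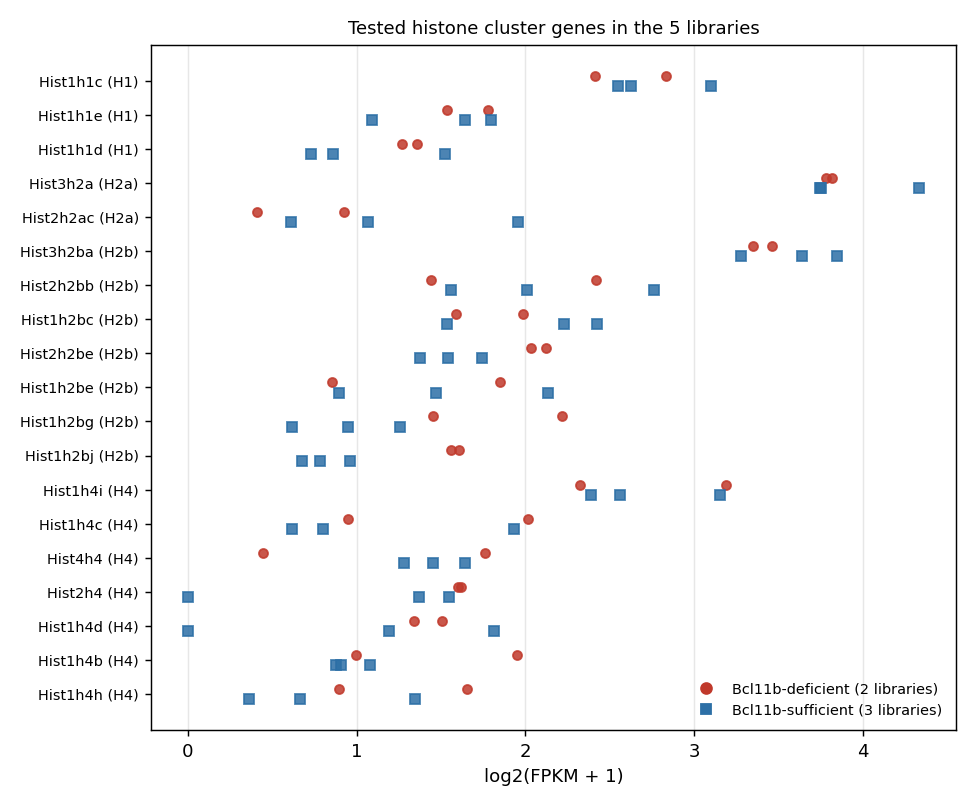
Levels of the 19 tested histone members in the 2 deficient (circles) and 3 sufficient (squares) libraries on an axis of log2(FPKM + 1), ordered by histone type and mean. Hist3h2a and Hist3h2ba stand highest, and the libraries of the 2 groups overlap for 15 of the 19 members.

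A few members carried much of the signal. Hist3h2a and Hist3h2ba, neighbours on chromosome 11, made up 33.9% of the members' sum on average (27.7% to 39.8% over the 5 libraries). With Hist1h1c and Hist1h4i the share was 49.7% (45.1% to 58.7% over the libraries). Hist3h2a, which encodes an H2A protein, measured 12.6, 15.0, 12.9 and 11.1 FPKM in deficient and 12.4, 19.2, 12.4 and 12.5 FPKM in sufficient replicates 1 to 4. Both groups overlapped, and sufficient replicate 2 was highest. Its log2 fold change (deficient minus sufficient, on log2(FPKM + 1)) was -0.15 (SE 0.19, limma adjusted p = 0.734). The GENCODE model of Hist3h2a (chr11:58954685-58956830) runs 1643 bases past the stem-loop. It overlaps Trim17 on the same strand and Gm44313 on the other, so reads of these genes cannot be told apart here. In its coding part 100% of the 50-base stretches occur in other genes, and over the whole model 31.5%, so its level is uncertain.

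Hist3h2ba, an H2B gene upstream of it (chr11:58948920-58949533), measured 8.23, 9.97, 11.8 and 8.39 FPKM in deficient and 5.48, 13.4, 11.9 and 11.4 FPKM in sufficient replicates 1 to 4. Both the lowest and the highest value were in sufficient cells, and the fold change was -0.18 (SE 0.18, adjusted p = 0.640). The pseudogene between them, Hist3h2bb-ps, was at 0 to 1.33 FPKM. Its group means, 0.466 ± 0.282 (SD, n = 2) and 0.624 ± 0.177 FPKM (SD, n = 3), overlapped in range.

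Among the linker histones, Hist1h1c (H1.2) measured 5.63, 2.97, 6.62 and 5.67 FPKM in deficient and 3.60, 7.59, 6.10 and 5.18 FPKM in sufficient replicates 1 to 4. Both groups overlapped (log2 fold change -0.14, SE 0.22, adjusted p = 0.783). Hist1h1e (H1.4) ranged from 1.09 to 2.70 FPKM and Hist1h1d (H1.3) from 0.521 to 2.59 FPKM, with fold changes of 0.15 (SE 0.25) and 0.28 (SE 0.28). Hist1h1e overlaps Hist1h2be and Gm11398 on the same strand. Hist1h1a and Hist1h1b, whose models end by the stop codon and which share no 50-base stretch with another gene, had means of 0.798 and 0.411 FPKM. The H1 sums were 11.4 and 9.86 FPKM in the deficient and 7.66, 12.4 and 9.13 FPKM in the sufficient libraries, which overlap.

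H2a members were almost all near 0. Apart from Hist3h2a only Hist2h2ac passed the filter, with 1.01, 0, 0.792 and 0.659 FPKM in deficient and 3.23, 0.525, 2.54 and 1.09 FPKM in sufficient replicates 1 to 4. Sufficient replicates 1 and 3, columns of 1 library, were highest, and the groups overlapped (log2 fold change -0.54, SE 0.40, adjusted p = 0.535). The next member, Hist1h2ae, had a mean of 0.551 FPKM. Summed H2a was 14.7 and 14.6 FPKM in the deficient and 16.4, 23.3 and 14.9 FPKM in the sufficient libraries. These do not overlap, by a margin smaller than the gap between deficient columns (12.6 to 16.6 FPKM), and most of each sum was Hist3h2a. The log2 ratio of group means was -0.31, and it was -0.0955 without sufficient replicate 2 and -0.12 with libraries scaled to equal totals. All 18 H2a members overlap an annotated gene on the opposite strand, and the labels do not say whether strand was used in counting.

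On log2(FPKM + 1) the members with the largest fold changes were H2b genes, while with a pseudocount of 0.1 the H4 member Hist2h4 was first (1.62, against 1.41 for Hist1h2bg and 1.31 for Hist1h2bj). Hist1h2bj measured 2.29, 2.02, 1.80 and 1.87 FPKM in deficient and 0, 0.598, 1.44 and 0.949 FPKM in sufficient replicates 1 to 4. All 4 deficient columns were above all 4 sufficient columns. Its log2 fold change was 0.78 (SE 0.20), with an unadjusted limma p of 0.00597 and an adjusted p of 0.109 over all genes, which did not pass. At these depths such values rest on few fragments.

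Hist1h2bg measured 4.09, 1.80, 3.21 and 1.67 FPKM in deficient and 1.09, 0.532, 0.771 and 1.39 FPKM in sufficient replicates 1 to 4. Here the groups did not overlap, and deficient replicates 1 and 3 stood above the other deficient columns. The fold change, 0.89 (SE 0.30), did not pass (adjusted p = 0.191), and it was 0.51 without deficient replicates 1 and 3. Hist2h2be, whose model has a long 3′ untranslated region of 2192 bases with no match to the stem-loop and no 50-base stretch shared with another gene, measured 3.44, 3.24, 2.76 and 3.47 FPKM in deficient and 1.55, 1.91, 1.63 and 2.34 FPKM in sufficient replicates 1 to 4. Its groups did not overlap either (0.53, SE 0.18, adjusted p = 0.197).

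The other tested H2b members overlapped between groups. Hist1h2bc, a gene with a spliced model and no stem-loop match in it, ranged from 1.68 to 3.46 FPKM in deficient and from 1.90 to 4.37 FPKM in sufficient columns (-0.27, SE 0.29). Hist2h2bb ranged from 0 to 4.58 and from 1.95 to 5.78 FPKM (-0.18, SE 0.40), but all of its 50-base stretches occur in another gene, so its level is uncertain. The H2b sums were 27.5 and 27.9 FPKM in the deficient and 20.9, 29.0 and 29.3 FPKM in the sufficient libraries. They made up 37.2% of the members' sum on average, the largest share of the 5 types.

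No H3 member reached the filter. The 3 highest were Hist1h3a with a mean of 0.803 FPKM, Hist1h3c with 0.716 FPKM and Hist1h3i with 0.466 FPKM. Hist1h3a measured 1.83, 0, 1.67 and 1.19 FPKM in deficient and 0, 0.475, 0.920 and 0.733 FPKM in sufficient replicates 1 to 4, and the groups overlapped. The 12 H3 members summed to 4.91 and 1.84 FPKM in the deficient and 2.33, 2.91 and 2.52 FPKM in the sufficient libraries, 4.01% of the members' sum on average. By contrast the H3.3 genes H3f3a and H3f3b, which make the replication-independent H3, ranged from 212 to 337 and from 275 to 365 FPKM.

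H4 had 7 tested members. Hist1h4i, the highest, measured 6.31, 2.23, 9.91 and 5.78 FPKM in deficient and 5.37, 7.90, 4.45 and 4.24 FPKM in sufficient replicates 1 to 4, with the lowest and the highest value both in deficient cells (log2 fold change 0.05, SE 0.31). Hist1h4c ranged from 0 to 4.25 and from 0 to 2.82 FPKM (0.36, SE 0.47), and Hist4h4 from 0 to 3.33 and from 1.18 to 2.13 FPKM (-0.36, SE 0.37). Hist2h4 measured 2.73, 3.61, 1.43 and 0.446 FPKM in deficient and 1.45, 0, 1.71 and 1.93 FPKM in sufficient replicates 1 to 4. Its library means were just apart, at 2.08 and 2.03 against 1.58, 0 and 1.93 FPKM, while its columns overlapped (0.64, SE 0.45, adjusted p = 0.511; 0.15 without sufficient replicate 2). Hist1h4b was 2.86 and 0.994 FPKM in the deficient and 0.838, 1.11 and 0.875 FPKM in the sufficient libraries (0.52, SE 0.30, adjusted p = 0.423).

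H4 sums were 23.6 and 11.2 FPKM in the deficient and 11.7, 14.2 and 17.9 FPKM in the sufficient libraries. The library of deficient replicates 1 and 3 was highest of the 5 for H3 and for H4, and also for macrophage markers (576 FPKM) and for Rmrp and Rpph1 (60.8 FPKM). It was not highest for S phase genes, with 570 FPKM against 687 FPKM in the other deficient library and 512 to 700 FPKM in the sufficient ones. Whether other cells or the RNA fraction have a part in the H3 and H4 sums was not tested. Without this library the log2 ratio of group means turned from 0.39 to -0.49 for H3 and from 0.25 to -0.38 for H4.

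**Figure D3:**
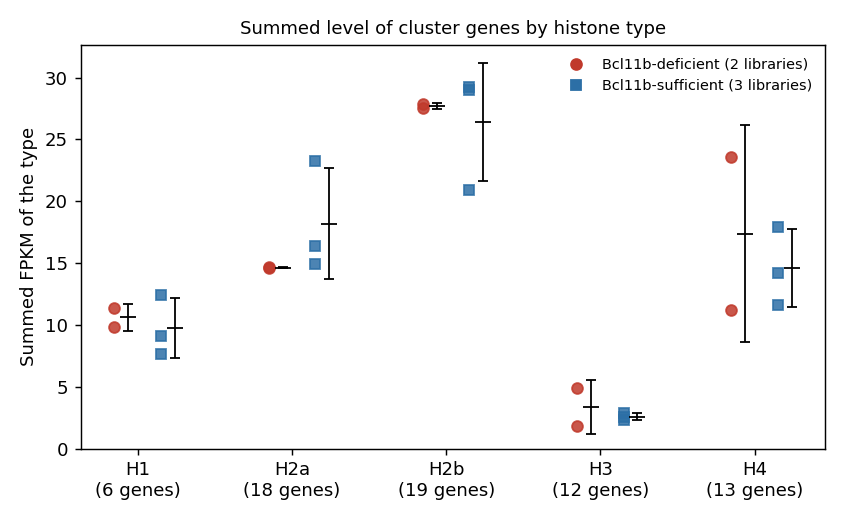
Summed FPKM of H1, H2a, H2b, H3 and H4 members in the 5 libraries (points), with the mean and SD of each group as black bars. The ranges of deficient and sufficient libraries overlap for H1, H2b, H3 and H4, and for H2a the deficient libraries (14.6 and 14.7 FPKM) lie just under the lowest sufficient library (14.9 FPKM).

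Over all 68 members the sums had means of 73.7 ± 11.8 FPKM (SD, n = 2) for the deficient libraries and 71.5 ± 11.6 FPKM (SD, n = 3) for the sufficient ones, a log2 ratio of 0.04, smaller than the spread between libraries. With libraries scaled to equal totals the ratio was 0.25, and those of H1 and H2b went from 0.13 to 0.32 and from 0.07 to 0.28. In the fit across all genes 0 of the 19 tested members were called, where 2.63% of all 10614 genes were (1.93% higher, 0.697% lower). Other settings called a few of the H2b members: Hist1h2bj in a fit without the mean-variance trend (2.42% of all genes called), Hist1h2bg, Hist1h2bj and Hist2h2be with the 8 columns taken as separate samples (17.4% called), and Hist1h2bg and Hist2h2be with the replicate number as a block on those columns (13.4% called). At an unadjusted p under 0.05 there were 3, the H2b members Hist1h2bj, Hist1h2bg and Hist2h2be, against 17.8% of all genes. The libraries did not overlap for 4 members, all with higher values in deficient libraries (these 3 and Hist2h4), where 18.9% of all genes did so in that direction, and for 0 members with lower values, where 17.9% of all genes did (36.7% in either direction). A count of 4 of 19 is near the background. The fold changes of the tested members had a median of 0.15 (from -0.54 to 0.89), with 11 positive and 8 negative, beside a median of -0.01 over all genes. The members' median turned to -0.00398 with quantile normalization and to -0.14 at a mean of at least 5 FPKM. By type the median was 0.15 for 3 H1 members, -0.15 for 7 H2b members and 0.42 for 7 H4 members, and both H2a members were negative. These are descriptions of the members that passed the filter only.

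**Figure D4:**
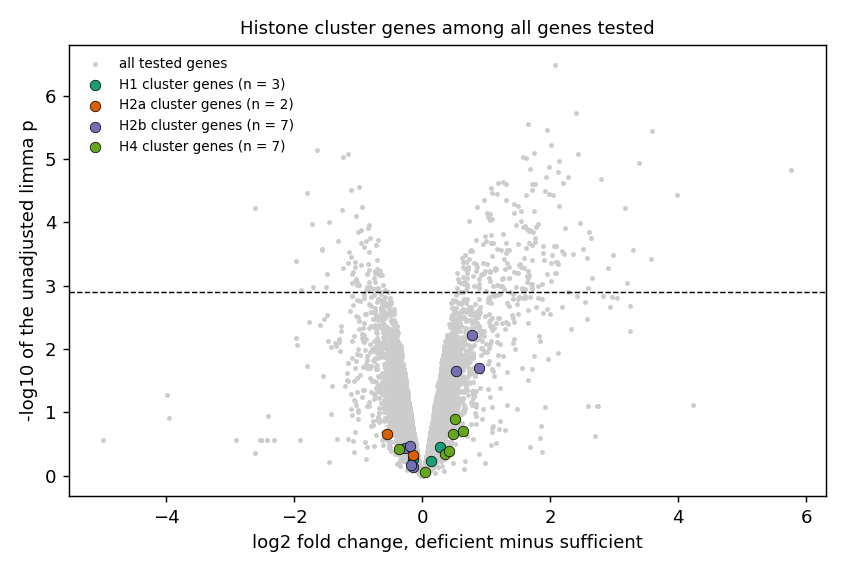
Log2 fold change, deficient minus sufficient, against the negative log10 of the unadjusted limma p for all 10614 genes (grey) and the 19 tested histone members (coloured by type). The dashed line is the largest p among the called genes, and every histone member lies under it, with Hist1h2bj, Hist1h2bg and Hist2h2be closest.

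Members were also grouped by the end of the GENCODE transcript, and these levels were set side by side without a test. At least some values do not rest on these models. Hist1h2bf has 461 bases in GENCODE, and Hist1h2bn and Hist1h2bl have 381. Yet Hist1h2bf and Hist1h2bn both read 0.298 FPKM in deficient replicate 3, and Hist1h2bf and Hist1h2bl both read 0.287 FPKM in sufficient replicate 3. The groups therefore describe the GENCODE models, not the ends used for the values. Of the 22 members whose GENCODE model runs more than 100 bases past the stem-loop, 12 had a mean of at least 1 FPKM, and the median mean was 1.35 FPKM. Of the 22 whose model ends within 100 bases, 4 did, with a median of 0.143 FPKM. Among the 17 members whose model ends by the stop codon 1 did (median 0.129 FPKM), and among the 6 with a longer 3′ untranslated region and no match 2 did (0.222 FPKM). Shared sequence was also counted. In the coding part 54 members share at least 50% of their 50-base stretches with other genes, and 11 of these had a mean of at least 1 FPKM, against 8 of the 13 that share less. Within the 54, the members that run past the stem-loop had 5 of 14 at that level (median 0.384 FPKM) and those that end near it 4 of 22 (0.143 FPKM). Among members that share less, 7 of the 8 that run past it were at that level (median 1.565 FPKM), and none end near it. In the full groups of 22 the annotated end and shared sequence therefore cannot be told apart. The members are not independent of each other, and the labels do not say how reads were shared among near-identical copies, so levels of single copies are uncertain.

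Across libraries, members that run past the stem-loop summed to 57.1 and 43.7 FPKM in the deficient and 40.7, 63.0 and 50.1 FPKM in the sufficient libraries. Members that end near it summed to 14.1 and 7.93 against 6.52, 6.76 and 8.59 FPKM. Both overlap between groups.

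**Figure D5:**
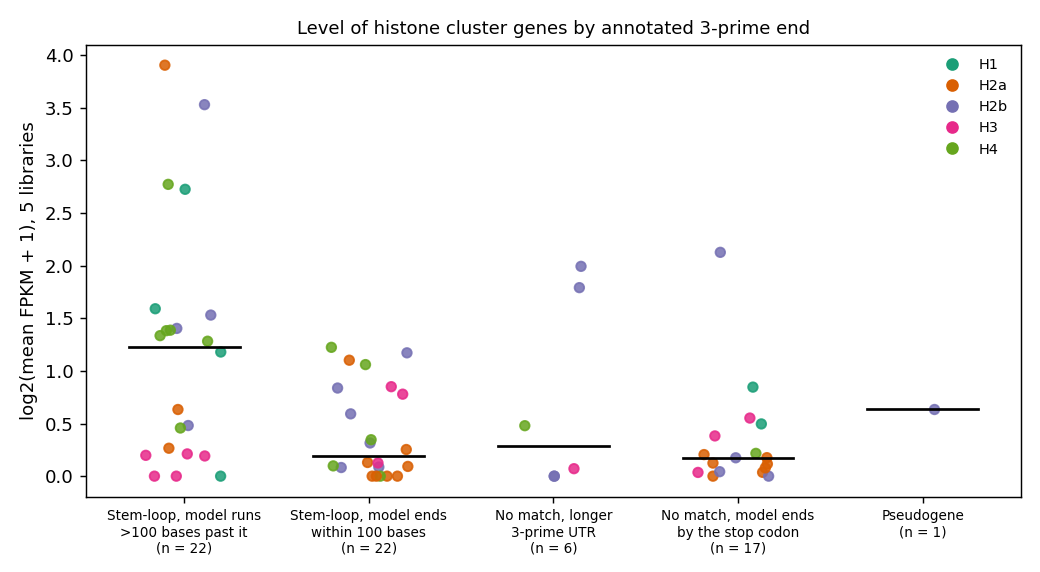
Mean FPKM of each member over the 5 libraries by the end of its GENCODE transcript model, on an axis of log2(FPKM + 1), coloured by histone type, with the median as a line. It is 1.35 FPKM for models that run past the stem-loop and 0.143 FPKM for models that end near it. At least some of the values do not rest on these models.

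In the annotation 13 pairs of an H2a and an H2b gene lie head to head with start sites within 500 bases. In the 5 pairs with a tested member the partners had the following levels. Hist1h2bj had a mean of 1.25 FPKM and its partner Hist1h2ag, 270 bases away, 0.192 FPKM. Hist1h2bg had 1.65 FPKM and Hist1h2ae, 176 bases away, 0.551 FPKM. Hist1h2bc had 2.98 FPKM and Hist1h2ac, 251 bases away, 0.202 FPKM, and in Hist2 the values were 2.46 FPKM for Hist2h2be and 1.15 FPKM for Hist2h2ac, 239 bases away. In the Hist3 pair the H2a gene was the higher one, Hist3h2a at 14.0 FPKM against 0.561 FPKM for Hist3h2bb-ps, 173 bases away.

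Of the replication-independent variants 9 of 11 were tested and 0 were called, where 2.63% of all genes were, so a count of 0 is near the background. Of the 9 fold changes 8 were negative, with a median of -0.12. H2afz, which encodes H2A.Z, measured 172, 149, 186 and 176 FPKM in deficient and 278, 288, 264 and 235 FPKM in sufficient replicates 1 to 4. Here the groups did not overlap, at 171 ± 11.9 (SD, n = 2) and 264 ± 27.2 FPKM (SD, n = 3), and its log2 fold change of -0.62 (SE 0.13) lay just short of the threshold (adjusted p = 0.0560). H3f3b also did not overlap, at 287 ± 16.4 and 346 ± 27.1 FPKM (-0.27, SE 0.12, adjusted p = 0.315), while H3f3a did. The variants' sums averaged 987 ± 3.34 FPKM against 1173 ± 52.4 FPKM, with no overlap. Total FPKM over all genes was also lower in the deficient columns (474416 to 495435) than in the sufficient ones (509592 to 613276). The variants' sums were not scaled to equal totals, so their difference may not hold relative to the total.

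Genes that make and process histone mRNA showed no call in 19 tested of 21, where 2.63% of all genes were called, so this is near the background. Slbp, whose protein binds the stem-loop printed above, was 48.3 ± 3.41 FPKM (SD, n = 2) in the deficient libraries and 38.5 ± 4.22 FPKM (SD, n = 3) in the sufficient ones, which do not overlap (0.32, SE 0.12, adjusted p = 0.239). Ncbp1, the large subunit of the nuclear cap-binding complex, was 37.2 ± 4.07 and 46.9 ± 0.991 FPKM (-0.33, SE 0.11, adjusted p = 0.178). Pou2f1, the octamer-binding factor of H2b promoters, overlapped between groups (0.39, SE 0.20). Npat, the activator of cluster histone genes in S phase, was 4.57 to 6.21 FPKM in all 8 columns.

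Genes of histone deposition and of the cell cycle were not called either, where 2.63% of all genes were. In lists this short a count of 0 is near the background. Of 16 chaperones tested 0 were called, with a median fold change of -0.00215, and Nap1l1 (-0.28), Atrx (0.42) and Daxx (0.19) had the lowest p-values. Of 26 S phase genes 0 were called, with a median of 0.11; Ccne1, the cyclin of S phase entry, was 9.91 ± 0.397 and 6.51 ± 1.35 FPKM (0.55, SE 0.17, adjusted p = 0.159), Cdt1, the licensing factor, had -0.38 and E2f1 0.36. All 14 G2 and mitosis genes had positive fold changes, with a median of 0.28, and 0 were called. Mki67 was 25.6 ± 8.72 and 16.1 ± 5.93 FPKM, overlapping between groups (0.67, SE 0.34, adjusted p = 0.358). Summed, the G2 and mitosis genes were 132 and 198 FPKM in the deficient and 159, 153 and 81.5 FPKM in the sufficient libraries, lowest in sufficient replicate 4.

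Markers of other cells differed between the libraries beside these values. Summed B cell markers were 20.9 and 23.6 FPKM in the deficient and 15.4, 18.0 and 27.4 FPKM in the sufficient libraries. Of 4 tested, 1 was called higher, Ly6d (1.10, SE 0.16, limma adjusted p = 0.0236), where 1.93% of all genes were. Cd79b went the other way (-0.60, SE 0.25), and 2 of the fold changes were positive and 2 negative. Erythroid markers, mostly globins, were 26.9 and 257 against 1.25, 136 and 29.1 FPKM, and neutrophil markers 7.53 and 36.4 against 3.93, 40.4 and 6.43 FPKM. Of the macrophage list the defining genes Csf1r and Lyz2 were at 21.8 to 52.5 and 61.2 to 161 FPKM in deficient columns and at 0.843 to 6.16 and 1.99 to 15.0 FPKM in sufficient ones. In bulk RNA fewer cells of a type and less RNA per cell cannot be told apart, and the part of such cells in the histone values was not tested.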

How the data were processed

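The deposited table holds FPKM per gene, as the authors named it and its values bear out. Per the labels' protocols, libraries were made with a stranded total RNA kit. The submitters' processing notes list STAR 2.5.1, the mm10 build, Cuffdiff 2.2.1 and Cuffnorm 2.2.1, and cutadapt 1.12 with Trim Galore 0.4.2 and FastQC, with no settings. No source used here gives the annotation, the strand setting or the treatment of multi-mapping reads. The 8 columns named like the samples were used, and 8 further columns with other names were left out. FPKM are relative within a library: Snora61, for one, was very high in sufficient replicate 4 and at 0 elsewhere. Depth was approximated from low values of 5372 single-transcript genes, of which 51.1% to 63.4% of those used lay within 5% of whole fragments, so reads were not recovered, no count model was run and no intervals are given.

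Near-identical columns were averaged where their spread was under 1.5 times sampling noise at 150 to 500 fragments. Genes that averaged 1 FPKM or more were tested with limma 3.58.1 (R 4.3.3; mean-variance trend, group only) on log2(FPKM + 1), a scale that understates changes of low genes, with two-sided p-values and Benjamini-Hochberg adjustment over all genes (threshold 0.05). On simulated data of 10613 genes, the test found 97% of 2-fold changes and 100% of 4-fold changes, and 10 of 207 calls were false. Changed genes were drawn from those of at least 5 FPKM, so this does not hold for most members. The simulation also gave every gene the same noise, unlike the real libraries. It shows that the fit runs as meant, and not how many real changes would be found. Transcripts were matched by symbol to GENCODE M21 of GRCm38; RefSeq ends are from its table for the same build. Members and lists were chosen with earlier results of these data known. Named genes were the 3 highest members of each type, the 5 largest and 5 smallest fold changes, the Hist3 and Hist4 members, the 3 lowest p-values of each other list, Bcl11b and Foxp3; other genes were named after their values were seen. Alternatives covered pseudocount, filter, variance model, scaling, merging and left-out libraries.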

Additional observations from a re-analysis of the deposited data

How the results depend on the processing

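The members called stayed at 0 in 19 of 22 alternatives, including each column and each library left out. Without the mean-variance trend there was 1 (Hist1h2bj, adjusted p = 0.0379, 2.42% of all genes called). With all 8 columns as separate samples there were 3 (Hist1h2bg, Hist1h2bj and Hist2h2be), where 17.4% of all genes, 1851, were called. With the replicate block on the 8 columns there were 2 (Hist1h2bg and Hist2h2be, limma adjusted p = 0.0432 and 0.0382), with 1418 genes (13.4%) called. Same-numbered samples correlated only weakly, at 0.0275, 0.0581, 0.126 and 0.0906 for replicates 1 to 4. Deficient replicates 2, 3 and 4 correlated best with the sufficient replicate of their own number. Deficient replicate 1 correlated best with sufficient replicate 2 (0.13), and whether the samples are paired is not settled by these values. Over all genes 279 were called, against 182 with a pseudocount of 0.1, 99 with no filter, 113 with a mean of at least 5 FPKM and 8 to 297 with a column or library left out (8 without deficient replicates 2 and 4, 16 without 1 and 3, 80 and 133 without sufficient replicates 2 and 4, 167 without sufficient replicates 1 and 3). Equal totals gave 341 higher and 30 lower, against 205 and 74, and moved the median of all genes to 0.18 and that of the members to 0.29.

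The members' median fold change of 0.15 was -0.14 at a mean of at least 5 FPKM, -0.00398 with quantile normalization, 0.0164 with no filter, 0.23 with a pseudocount of 0.1, 0.25 with the 8 columns separate and -0.0758 to 0.34 with a column or library left out. Log2 ratios of summed H3 and H4 ranged from -0.49 to 0.93 and from -0.38 to 0.69, both lowest without deficient replicates 1 and 3; with equal totals the ratios of H3 and H4 were 0.60 and 0.48. With equal totals the fold changes of Hist1h1c, Hist3h2a and Hist3h2ba turned to 0.0382, 0.0515 and 0.0126. With quantile normalization those of Hist1h1e and Hist1h4i turned to -0.0223 and -0.00398, and with depth-weighted averages, chosen after seeing the data, that of Hist2h2bb to 0.0590. With a column or library left out, ranges that crossed 0 were -0.35 to 0.0721 for Hist1h1c, -0.0903 to 0.52 for Hist1h1d, -0.0642 to 0.29 for Hist1h1e, -0.17 to 0.90 for Hist1h4c, -0.38 to 0.49 for Hist1h4i, -0.90 to 0.31 for Hist2h2bb, -0.25 to 0.0481 for Hist3h2a, -0.34 to 0.0124 for Hist3h2ba and -1.01 to 0.30 for Hist4h4; with whole libraries left out Hist1h1d stayed positive and Hist3h2ba negative. The cause was not tested. Hist1h2bj, Hist1h2bg and Hist2h2be stayed positive in every alternative in which they were tested, Hist1h2bg at 0.51 to 1.28 with a column or library left out. Hist2h4 went down to 0.10 without deficient replicate 2 and 0.15 without sufficient replicate 2. Depth limits most members to a few fragments a column, so small differences were not detectable.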
